A study of Arabidopsis thaliana with 35 samples.

Results

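The 10 genes described here carry out or control the synthesis of aliphatic glucosinolates, the methionine-derived mustard oil precursors of *Arabidopsis thaliana*. They were *MYB28*, *MYB29*, *MYB76*, *MAM1*, *MAM3*, *BCAT4*, *CYP79F1*, *CYP79F2*, *CYP83A1* and *FMO GS-OX1*, 10 of the 28775 genes in the count table. All 10 passed the filter on low counts, which used the libraries of both genotypes, as did 21115 genes in all. The pathway was picked from the same libraries, because *MAM1*, *BCAT4* and *MYB76* were among the genes with the largest decreases in treated wild-type tissue. Values of wild-type libraries, and comparisons that use them, are therefore given as descriptions with no test. Tests compare only libraries of the *clf swn* double mutant, on whose values this reason did not rest. Earlier results of these libraries were nevertheless known. The filter, the scaling and the spread in the model were taken from all 35 libraries, wild type included.

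Aliphatic glucosinolates start from methionine, which is deaminated and lengthened before it enters the core pathway. BCAT4 removes the amino group, and the methylthioalkylmalate synthases MAM1 and MAM3 add the carbon. The cytochromes P450 CYP79F1 and CYP79F2 turn the lengthened amino acids into aldoximes, and CYP83A1 oxidises the aldoximes further. FMO GS-OX1 oxidises the sulfur of the finished side chain. MYB28, MYB29 and MYB76 are transcription factors that activate these genes. Tissue damage brings glucosinolates together with myrosinases, which release toxic products.

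The study sequenced RNA of shoot apices from 14-day-old plants, that is the shoot apical meristem with the axillary meristems at the leaf bases, once cotyledons and leaves had been removed. The mutant carried the *clf-29* and *swn-3* alleles, T-DNA insertions in the genes for the PRC2 (Polycomb Repressive Complex 2) methyltransferases CLF and SWN, and the wild type was Col-0. In each genotype (*cs* for the mutant, WT for the wild type) plants were wounded and treated with 5 µM of the auxin 2,4-D (WA), treated with 2,4-D alone as intact seedlings (A), wounded alone by a cut through the upper hypocotyl (W), or given DMSO as mock (M). Each of these 8 groups had 3 libraries, collected after 55 h. Tissue at time 0 (ctrl) gave 6 *cs* and 5 WT libraries, of which 3 of each genotype were named C0 and the others C1.

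Between 11375703 and 18094983 reads were counted on genes per library, and levels are given as CPM, the count scaled to a total of 1000000 reads. *CLF* had 0.775 to 1.92 CPM in the 18 *cs* libraries and 29.5 to 55.6 CPM in the 17 WT libraries, so each library matched its genotype. Of the shoot meristem markers, *CLV3* had no count in any WT-WA or WT-A library and *WUS* none in WT-WA, while the summed level of the 6 markers was at least 117 CPM in each library. One untreated mutant library, *cs*-ctrl C0 replicate 1, stood apart for the genes described here. Its values are given separately, and its *CLF* level of 1.03 CPM lay within the 0.870 to 1.17 CPM of the other 5 untreated *cs* libraries. Why it stood apart was not tested. Replicate 1 was also the highest library for most of the compared genes in some other groups, as given below.

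The 10 genes lie on 4 chromosomes (coordinates in TAIR10.1), and 6 of them form tandem pairs on the same strand with no annotated gene between. *MYB29* (AT5G07690, chr5:2446669-2448584) and *MYB76* (AT5G07700, chr5:2450027-2451807) are 1442 bases apart. *MAM1* (AT5G23010, chr5:7703041-7706973) and *MAM3* (AT5G23020, chr5:7718118-7721866) are 11144 bases apart. *CYP79F2* (AT1G16400, chr1:5605044-5607498) and *CYP79F1* (AT1G16410, chr1:5608682-5612064) are 1183 bases apart. The single genes are *MYB28* (AT5G61420, chr5:24689069-24691187), *BCAT4* (AT3G19710, chr3:6846969-6849582), *CYP83A1* (AT4G13770, chr4:7990429-7992429) and *FMO GS-OX1* (AT1G65860, chr1:24498954-24502776). Of the 50-base words in the exons of *CYP79F1*, 1.70% also occur in *CYP79F2*, and 2.89% of those of *CYP79F2* occur in *CYP79F1*, and whether reads were lost there was not tested. Neither *MAM* gene shares such a word. A neighbouring gene overlaps 21.2% of the exon bases of *BCAT4*, and it had at most 0.0822 CPM in any library.

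The following promoters are shown because these genes carry the first steps of the pathway and varied together across the groups. Each runs from 250 bases before to 50 bases after the annotated gene start in RefSeq on TAIR10.1, 5′ to 3′ on the gene's strand. Capitals mark TATAAA on the gene's strand, the AC element ACCTACC, of a kind that MYB proteins recognise, on either strand, and the G-box CACGTG.
MAM1 promoter, chr5:7702791-7703090, plus strand: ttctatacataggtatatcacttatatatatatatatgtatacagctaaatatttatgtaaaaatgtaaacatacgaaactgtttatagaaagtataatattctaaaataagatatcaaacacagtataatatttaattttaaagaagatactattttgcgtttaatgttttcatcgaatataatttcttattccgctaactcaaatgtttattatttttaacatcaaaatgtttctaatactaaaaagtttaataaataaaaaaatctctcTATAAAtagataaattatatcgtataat
BCAT4 promoter, chr3:6849533-6849832, minus strand: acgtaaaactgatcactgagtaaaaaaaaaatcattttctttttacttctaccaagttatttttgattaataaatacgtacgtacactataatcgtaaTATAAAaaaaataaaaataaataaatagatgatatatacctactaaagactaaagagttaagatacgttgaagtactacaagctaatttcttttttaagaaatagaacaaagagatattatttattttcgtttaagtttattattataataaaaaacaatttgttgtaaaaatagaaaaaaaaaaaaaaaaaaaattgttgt
CYP79F1 promoter, chr1:5608432-5608731, plus strand: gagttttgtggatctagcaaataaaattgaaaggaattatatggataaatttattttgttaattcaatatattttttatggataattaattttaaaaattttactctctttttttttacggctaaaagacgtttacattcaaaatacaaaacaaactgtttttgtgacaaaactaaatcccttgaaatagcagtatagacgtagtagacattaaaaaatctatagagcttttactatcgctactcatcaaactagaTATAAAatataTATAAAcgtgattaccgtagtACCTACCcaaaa
CYP79F2 promoter, chr1:5604794-5605093, plus strand: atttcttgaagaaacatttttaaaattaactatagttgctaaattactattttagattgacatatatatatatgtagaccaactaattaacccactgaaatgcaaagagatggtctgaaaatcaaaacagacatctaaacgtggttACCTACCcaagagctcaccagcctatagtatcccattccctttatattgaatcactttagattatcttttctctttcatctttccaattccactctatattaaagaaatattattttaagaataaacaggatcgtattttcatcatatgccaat
CYP83A1 promoter, chr4:7992380-7992679, minus strand: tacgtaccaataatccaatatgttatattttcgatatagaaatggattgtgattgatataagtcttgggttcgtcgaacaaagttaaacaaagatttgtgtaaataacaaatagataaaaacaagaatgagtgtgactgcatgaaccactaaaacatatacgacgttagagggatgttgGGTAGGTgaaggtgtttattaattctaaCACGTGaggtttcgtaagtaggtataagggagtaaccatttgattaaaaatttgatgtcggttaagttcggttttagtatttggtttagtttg

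ACCTACC stood in the promoters of *CYP79F1*, *CYP79F2* and *CYP83A1*, 3 of the 10, and in 1.38% of 27443 promoters of protein-coding genes of the same length. *CYP79F1* and *CYP79F2* are tandem copies, so their matches may not be independent, and the count was not tested against the share. The match in *CYP79F1* lies after the annotated start, and that in *CYP83A1* is on the opposite strand. The related elements ACCTAAC, present in 2.88% of all promoters, and ACCAAAC, present in 9.90%, were found in 1 (*FMO GS-OX1*) and 0 of the 10. The G-box, the core site of MYC-type factors, was found in 1 of the 10, *CYP83A1*, against 7.68% of all promoters. TATAAA was found in 6 of the 10 and in 37.2% of all promoters, and in *MAM1* and *CYP79F1* it lies after the annotated start. No match overlapped another.

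In WT-M tissue the pathway enzymes were abundant. Per kilobase of exon, *MAM1* had the highest level, 794 ± 71.3 CPM per kilobase (RPKM, SD, n = 3), and *BCAT4* had 699 ± 68.4 RPKM, and the spreads of both overlapped. *CYP83A1* with 327 ± 11.4 RPKM and *CYP79F1* with 254 ± 25.9 RPKM came next. Their order rests on the exon lengths used, 1909 and 3272 bases, since by CPM *CYP79F1* with a mean of 832 was above *CYP83A1* with 623. *CYP79F2*, the tandem copy of *CYP79F1*, reached only 18.3 ± 3.72 RPKM, and *MAM3*, next to *MAM1*, only 1.70 ± 0.827 RPKM. Of the regulators *MYB28* had 76.6 ± 20.4 RPKM, *MYB29* 53.5 ± 5.68 RPKM and *MYB76* 10.4 ± 3.50 RPKM. *FMO GS-OX1* had 79.0 ± 11.3 RPKM.

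In the mutant the 10 genes together made up 12.5 to 32.5 CPM in *cs*-WA, 5.22 to 20.9 CPM in *cs*-A, 138 to 328 CPM in *cs*-W, 98.8 to 245 CPM in *cs*-M and 18.1 to 182 CPM in *cs*-ctrl. In the wild type they summed to 4.83 to 9.46 CPM in WT-WA, 20.7 to 66.1 CPM in WT-A, 532 to 752 CPM in WT-W, 4237 to 4880 CPM in WT-M and 3259 to 6044 CPM in WT-ctrl. Ranked by these sums, WT-ctrl and WT-M overlapped, WT-W stood alone below them, and *cs*-W, *cs*-M and *cs*-ctrl overlapped. The wide range of *cs*-ctrl reached down to those of WT-A, *cs*-WA and *cs*-A, which overlapped among themselves, and WT-WA overlapped *cs*-A alone.

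**Figure D1:**
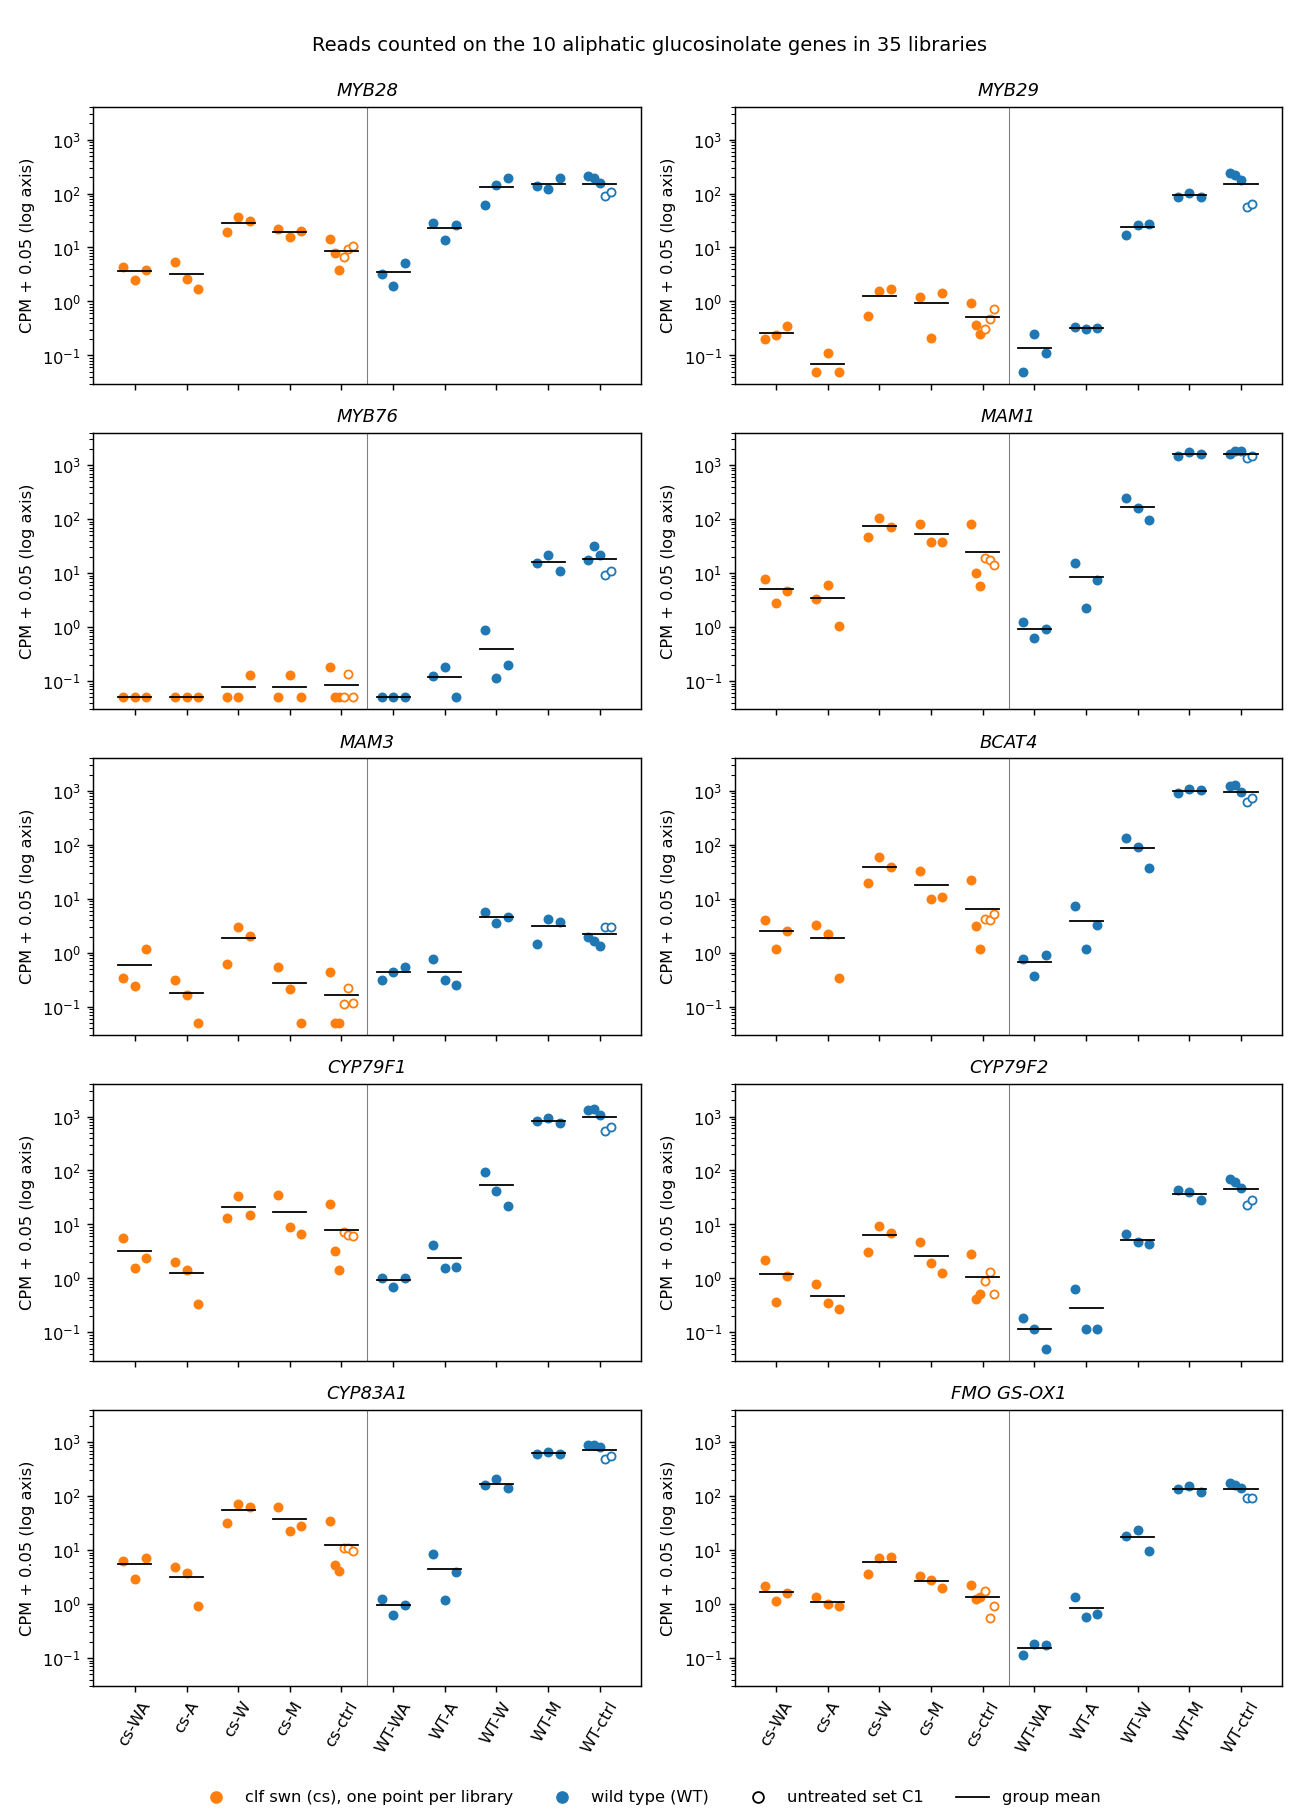
CPM of each gene in each library, with 0.05 added so that zeros can be drawn on the log axis, *cs* groups in orange and WT groups in blue, bars at the group means. Open points are untreated set C1. The 3 WT-WA libraries of *MAM1* sit between 0.587 and 1.19 CPM and its 3 WT-M libraries between 1474 and 1766 CPM.

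The wild type was then described under each treatment against mock. In WT-A all 10 genes had every library below every WT-M library, where 32.6% of the 21115 tested genes were lower and 33.4% higher in this way. The same held for all 10 genes in WT-WA, where 35.3% of all genes were lower and 35.6% higher. In WT-W it held for 8 of the 10, where 23.9% of all genes were lower and 21.9% higher, and the exceptions were *MYB28* and *MAM3*. Since the genes were chosen for these decreases, nothing is read from the counts. In bulk tissue, fewer cells of a type and less RNA per cell cannot be told apart.

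Among the regulators, *MYB28* had 3.23, 1.89 and 5.13 CPM in WT-WA, 28.1, 13.5 and 26.4 CPM in WT-A and 61.8, 144 and 190 CPM in WT-W, against 138, 120 and 197 CPM in WT-M. Its wounded and mock libraries thus overlapped. *MYB29* had 0, 0.196 and 0.0618 CPM in WT-WA, 0.288, 0.263 and 0.272 CPM in WT-A and 16.97, 26.4 and 27.3 CPM in WT-W, against 87.2, 104 and 86.5 CPM in WT-M. *MYB76* had no count in any WT-WA library, 0.0719, 0.132 and 0 CPM in WT-A, and 0.838, 0.0631 and 0.146 CPM in WT-W, against 15.6, 21.6 and 10.8 CPM in WT-M. With wounding alone the 3 regulators kept unlike shares of their mock level, since the mean of *MYB28* was 87.2% of its WT-M mean, that of *MYB29* 25.5% and that of *MYB76* 2.18%. Without WT-W replicate 1 the mean of *MYB76* was 153-fold lower in WT-W than in WT-M, against 45.8-fold with it. Against a floor of 3 counts per library, *MYB76* was at least 82.9-fold lower in WT-WA than in WT-M.

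The enzymes of chain elongation diverged in the same tissue. *MAM1* had 1.19, 0.587 and 0.865 CPM in WT-WA, 15.3, 2.17 and 7.40 CPM in WT-A and 249, 162 and 95.6 CPM in WT-W, against 1474, 1766 and 1644 CPM in WT-M. *BCAT4* had 0.724, 0.326 and 0.865 CPM in WT-WA, 7.27, 1.12 and 3.19 CPM in WT-A and 135, 90.6 and 38.0 CPM in WT-W, against 906, 1100.1 and 1038 CPM in WT-M. Neither gene had a treated library that reached the mock range. The mean of *MAM1* was 1852-fold lower in WT-WA, 197-fold lower in WT-A and 9.64-fold lower in WT-W than in WT-M, and that of *BCAT4* 1589-fold, 263-fold and 11.6-fold lower. Without WT-A replicate 1, the mean in WT-A was 340.1-fold lower for *MAM1* and 471-fold lower for *BCAT4*. *MAM3* had only 0.263, 0.391 and 0.494 CPM in WT-WA, 0.719, 0.263 and 0.204 CPM in WT-A and 5.66, 3.53 and 4.59 CPM in WT-W, against 1.39, 4.26 and 3.66 CPM in WT-M. Its wounded and mock libraries overlapped, whereas those of *MAM1* did not.

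The core enzymes followed *MAM1*. *CYP79F1* had 0.988, 0.652 and 0.989 CPM in WT-WA, 4.10, 1.51 and 1.56 CPM in WT-A and 95.1, 42.1 and 21.9 CPM in WT-W, against 825, 919 and 750.3 CPM in WT-M. *CYP83A1* had 1.19, 0.587 and 0.927 CPM in WT-WA, 8.49, 1.12 and 3.94 CPM in WT-A and 163, 205 and 140 CPM in WT-W, against 611, 649 and 610.4 CPM in WT-M. In WT-A, replicate 1 had the highest value of both genes, and also of *MYB28*, *MAM1*, *BCAT4*, *CYP79F2* and *FMO GS-OX1*, the other genes with a mean of at least 1 CPM in the mutant. *CYP79F2* had 0.132, 0.0652 and 0 CPM in WT-WA, 0.576, 0.0658 and 0.0679 CPM in WT-A and 6.50, 4.67 and 4.37 CPM in WT-W, against 42.8, 39.3 and 28.4 CPM in WT-M. *FMO GS-OX1*, the side chain enzyme, had 0.0658, 0.130 and 0.124 CPM in WT-WA, 1.295, 0.527 and 0.611 CPM in WT-A and 18.5, 23.3 and 9.62 CPM in WT-W, against 135, 157 and 118 CPM in WT-M. Only 3 reads of *CYP79F2* and 5 of *FMO GS-OX1* were counted in the 3 WT-WA libraries together.

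The fitted log2 fold changes summarise this order. Their median over the 10 genes was -9.91 in WT-WA, -7.53 in WT-A and -2.91 in WT-W, each against WT-M, while the median over all genes was between 0 and 0.015. These fitted values depend on a prior count for genes with few reads, and the 3 comparisons share the WT-M libraries. Mock treatment itself separated none of the 10 genes from WT-ctrl, against 4.12% of all genes lower and 6.15% higher in WT-M. The 2 sets of untreated libraries differed. *CYP79F1* had 1313, 1359 and 1063 CPM in set C0 and 536 and 643 CPM in set C1, *MYB29* had 243, 217 and 176 CPM in set C0 and 55.1 and 63.3 CPM in set C1, and with set C0 alone 4 of the 10 genes had every WT-M library lower, where 14.9% of all genes were lower and 17.7% higher.

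In the mutant the 10 genes were low before any treatment. In *cs*-ctrl all 10 genes had every library below every WT-ctrl library, where 21.5% of all genes were lower and 19.5% higher. In *cs*-M all 10 were below WT-M, where 31.8% of all genes were lower and 26.9% higher. Of 16 other tested genes of the aliphatic pathway, 14 had every *cs*-ctrl library below WT-ctrl and 2 had every one above. The 10 genes were chosen for falls in the wild type, which favours genes high in WT-M, so these counts are given without a reading. The mean levels of the 10 genes in *cs*-ctrl were 0.197% to 5.71% of those in WT-ctrl, with a median of 1.24%. Without *cs*-ctrl C0 replicate 1 they were 0.0938% to 4.99%, with a median of 0.824%, and the mean of *MAM1* was 124-fold lower in *cs*-ctrl than in WT-ctrl, against 66.7-fold with it. The levels in *cs*-M were 0.171% to 12.8% of those in WT-M, with a median of 2.63%. *MYB28* kept the largest share, with 14.2, 7.83, 3.71, 6.63, 9.35 and 10.6 CPM in *cs*-ctrl, against 213, 195, 160, 89.7 and 107 CPM in WT-ctrl. *MYB29* had 0.902, 0.311, 0.199, 0.260, 0.425 and 0.674 CPM in *cs*-ctrl, and *MYB76* had 3 reads in all 6 libraries together, against 1300 in the 5 WT-ctrl libraries. The ratio of its mean CPM was 509-fold lower in *cs*-ctrl, with a 95% exact interval of 192 to 2724 from counting error alone, and 1066-fold lower without *cs*-ctrl C0 replicate 1. Markers of seed and embryo also differed between the genotypes. The 6 genes of this list summed to 8275 to 13181 CPM in *cs*-ctrl, against 8.10 to 35.6 CPM in WT-ctrl, and to 12086 to 19367 CPM in *cs*-M, against 9.96 to 30.1 CPM in WT-M. *LEC1*, a regulator of embryo development, had no count in any WT-ctrl, WT-M or WT-W library. The part of these markers in the difference of the 10 genes was not tested.

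The genotypes were also set side by side at each treatment. In *cs*-A only *MYB28* and *MYB29* had every library below WT-A, 2 of the 10 genes, where 35.2% of all genes were lower and 35.7% higher. The count was 4 without *cs*-A replicate 1 (37.6% of all genes lower) or without WT-A replicate 2 (37.5%), and 2 genes were above WT-A without WT-A replicate 1 (39.1% of all genes higher). In *cs*-W 5 of the 10 were below WT-W, where 26.5% of all genes were lower and 20.8% higher, and 8 were so without WT-W replicate 3, with 30.1% of all genes. In *cs*-WA 0 were below WT-WA and 6 of the 10 were above it, where 31.4% of all genes were lower and 36.9% higher. Because WT libraries stand in each of these comparisons and the genes were chosen for their low values in WT-WA and WT-A, the counts are given without a reading.

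The 6 genes above WT-WA were *MAM1*, *BCAT4*, *CYP79F1*, *CYP79F2*, *CYP83A1* and *FMO GS-OX1*. *MAM1* had 7.62, 2.75 and 4.68 CPM in *cs*-WA, against 1.19, 0.587 and 0.865 CPM in WT-WA, and its mean was 5.71-fold higher. *CYP83A1* had 6.29, 2.81 and 7.21 CPM in *cs*-WA, against 1.19, 0.587 and 0.927 CPM in WT-WA. The mean of *CYP79F2* was 17.8-fold higher, on 48 reads in *cs*-WA and 3 reads in WT-WA, 10.4-fold higher without *cs*-WA replicate 1 and 35.8-fold higher without WT-WA replicate 1. *MYB28* had 4.37, 2.49 and 3.79 CPM in *cs*-WA, against 3.23, 1.89 and 5.13 CPM in WT-WA, and these overlapped. The remaining genes had few reads in *cs*-WA and WT-WA, with 22 and 18 for *MAM3*, 9 and 4 for *MYB29*, and 0 in both for *MYB76*.

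**Figure D2:**
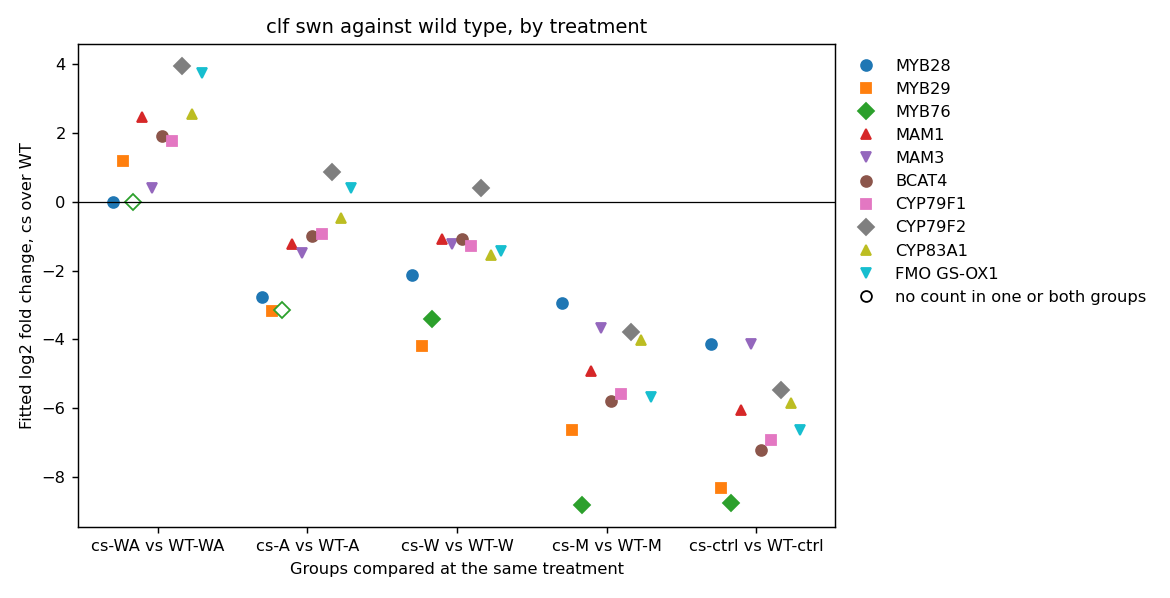
Fitted log2 fold change of *cs* over WT for each gene at each treatment, with no test and no error bar. Open symbols had no count in one or both groups. The median over the 10 genes was 1.84 in WA, -1.11 in A, -1.36 in W, -5.25 in M and -6.35 in ctrl.

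Each treatment was then tested against mock within the mutant. In *cs*-A 8 of the 10 genes fell against *cs*-M and 0 rose, where 6.35% of all tested genes fell and 5.82% rose. Calls needed an adjusted p under 0.05 in edgeR's quasi-likelihood test and a log2 fold change of 0.6 or more in size. No gene reached an unadjusted p under 0.05 in the upward direction, and DESeq2 also called 8 lower and 0 higher. Every *cs*-A library lay below every *cs*-M library for 8 of the 10, where 19.2% of all genes were apart downward and 21.7% upward. The median log2 fold change was -2.95 for the 10 genes and -0.016 for all genes.

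The changes reached regulators and enzymes. *MYB28* had 5.40, 2.61 and 1.67 CPM in *cs*-A, against 22.2, 15.4 and 20.5 CPM in *cs*-M, and fell by 2.60 ± 0.48 on the log2 scale (SE, adjusted p = 0.000219). *MAM1* had 3.24, 5.94 and 1.01 CPM in *cs*-A, against 83.0, 37.1 and 38.0 CPM in *cs*-M, and fell by 3.95 ± 0.74 (adjusted p = 0.000245). *CYP83A1* had 4.86, 3.74 and 0.869 CPM in *cs*-A, against 62.6, 22.4 and 28.4 CPM in *cs*-M, and fell by 3.58 ± 0.64 (adjusted p = 0.000141). Of the promoters shown above, that of *CYP83A1* has the AC element and the G-box, that of *CYP79F1* the AC element, and those of *MAM1* and *BCAT4* neither. The part of these elements in the changes was not tested. *BCAT4* had 3.17, 2.14 and 0.290 CPM in *cs*-A, against 33.2, 9.86 and 10.7 CPM in *cs*-M, and fell by 3.26 ± 0.80 (adjusted p = 0.00346). *CYP79F1* had 1.96, 1.37 and 0.290 CPM in *cs*-A, against 34.97, 8.95 and 6.73 CPM in *cs*-M, and fell by 3.80 ± 0.86 (adjusted p = 0.00157). In *cs*-M replicate 1 was the highest of the 3 libraries for each of the 7 genes with a mean of at least 1 CPM in the mutant, and its *CLF* level of 0.995 CPM was below the 1.23 and 1.66 CPM of the others. Why this library was the highest was not tested.

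The other calls rested on fewer reads. *MYB29* had 1 read in the 3 *cs*-A libraries and 34 in *cs*-M, a mean CPM 45.4-fold lower with a counting interval of 6.88 to 1667, and its fitted change was -4.91 ± 1.59 (adjusted p = 0.0246). *CYP79F2* fell by 2.65 ± 0.79 (adjusted p = 0.0148), with 0.742, 0.297 and 0.217 CPM in *cs*-A, against 4.62, 1.89 and 1.22 CPM in *cs*-M. *FMO GS-OX1* fell by 1.36 ± 0.47 (adjusted p = 0.0356), with 1.28, 0.951 and 0.869 CPM in *cs*-A, against 3.20, 2.71 and 1.92 CPM in *cs*-M. *MYB76*, with 0 reads in *cs*-A and 1 in *cs*-M, and *MAM3*, with 6 and 9 reads, were too low for a difference to be detectable. Leaving out any 1 library left 5 to 7 genes called. *MYB29* lost its call without any library but *cs*-M replicate 2 (adjusted p 0.0563 to 0.0818), and *FMO GS-OX1* without any library but *cs*-M replicate 3 (adjusted p 0.0516 to 0.141). *CYP79F2* lost its call without *cs*-A replicate 2 (adjusted p = 0.0642), *cs*-A replicate 3 (adjusted p = 0.0587) or *cs*-M replicate 1 (adjusted p = 0.161).

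Set against the same *cs*-M libraries, 5 of the 10 genes fell in *cs*-WA and 0 rose, where 8.49% of all tested genes fell and 9.81% rose. No gene reached an unadjusted p under 0.05 in the upward direction, and DESeq2 called 6 lower and 0 higher, the sixth being *MYB29* (adjusted p = 0.0249). *MYB28* had 4.37, 2.49 and 3.79 CPM in *cs*-WA, against the *cs*-M values above, and fell by 2.54 ± 0.48 (adjusted p = 0.000168). *MAM1* fell by 3.47 ± 0.72 (adjusted p = 0.000441), *CYP83A1* by 2.88 ± 0.61 (adjusted p = 0.000575), *BCAT4* by 2.92 ± 0.78 (adjusted p = 0.00503) and *CYP79F1* by 2.52 ± 0.76 (adjusted p = 0.0122). For 5 of the 10 genes, these ones, every *cs*-WA library lay below every *cs*-M library, where 18.8% of all genes were apart downward and 27.6% upward. *BCAT4* had 3.92, 1.15 and 2.53 CPM in *cs*-WA, and *CYP79F1* had 5.55, 1.53 and 2.30 CPM. Without *cs*-M replicate 1, 3 of the 10 genes were called, since *BCAT4* (adjusted p = 0.0645) and *CYP79F1* (adjusted p = 0.214) were lost, and *CYP79F1* was also lost without *cs*-WA replicate 2 (adjusted p = 0.0731). *CYP79F2* had 2.15, 0.319 and 1.04 CPM and *FMO GS-OX1* 2.15, 1.09 and 1.56 CPM in *cs*-WA, and neither passed the test.

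No decrease passed the test with wounding alone in the mutant. In *cs*-W 0 of the 10 genes fell and 1 rose against *cs*-M, where 0.0568% of all tested genes fell and 1.01% rose. No gene reached an unadjusted p under 0.05 in the downward direction, 3 did so in the upward direction, and DESeq2 called 0 lower and 2 higher. *MAM3* and *FMO GS-OX1* had every *cs*-W library above every *cs*-M library, 2 of the 10 genes, where 6.96% of all genes were apart upward and 8.76% downward. The count was 7 without *cs*-W replicate 1 (18% of all genes upward) or without *cs*-M replicate 1 (11.1%). *MAM1* had 46.9, 107 and 72.8 CPM in *cs*-W, against 83.0, 37.1 and 38.0 CPM in *cs*-M, with a log2 fold change of 0.58 ± 0.62 (adjusted p = 0.736). *BCAT4* had 19.8, 59.6 and 38.2 CPM in *cs*-W, against 33.2, 9.86 and 10.7 CPM in *cs*-M, with a log2 fold change of 1.19 ± 0.65 (adjusted p = 0.411). The libraries of both genes overlapped, and the replicate that was highest in *cs*-M was the lowest in *cs*-W. In the wild type the means of both genes were lower in WT-W than in WT-M, and the difference between the genotypes in this contrast was not tested.

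The gene that rose with wounding in the mutant was *MAM3*, the weakly expressed neighbour of *MAM1*. It had 0.564, 3.00 and 2.00 CPM in *cs*-W, against 0.497, 0.164 and 0 CPM in *cs*-M, a log2 fold change of 3.00 ± 0.79 (adjusted p = 0.0483) on 81 reads in *cs*-W and 9 in *cs*-M. The call was at the threshold. It was lost with the replicate number as a block (log2 fold change 3.01, adjusted p = 0.0567) and in a fit of the *cs* libraries only (log2 fold change 2.99, adjusted p = 0.136). Without any single library except *cs*-W replicate 1 it was lost too (adjusted p 0.0829 to 0.199). *FMO GS-OX1* had 3.52, 7.18 and 7.29 CPM in *cs*-W, against 3.20, 2.71 and 1.92 CPM in *cs*-M. The 3 *cs*-W libraries thus lay above *cs*-M, with a log2 fold change of 1.24 ± 0.38 that missed the threshold (adjusted p = 0.0964), passed it without *cs*-W replicate 1 (adjusted p = 0.0152) and passed it with DESeq2 (adjusted p = 0.0453).

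**Figure D3:**
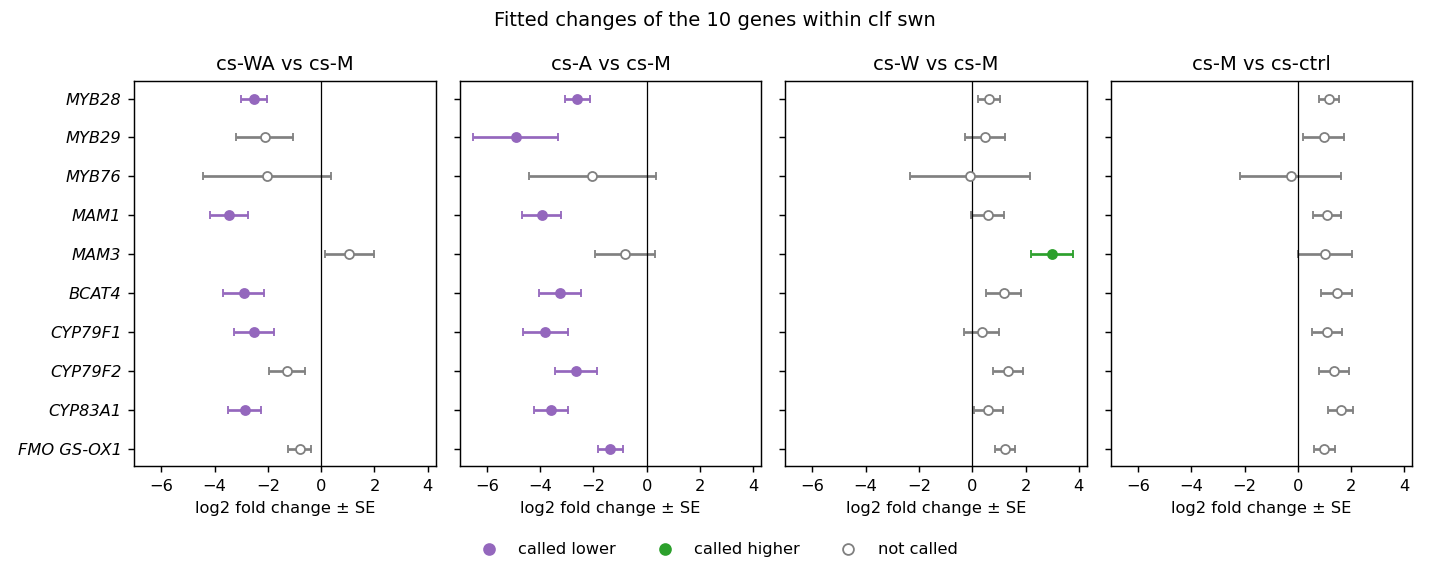
Log2 fold changes with their standard errors within *cs*, filled points passing both thresholds for a call. The calls are 5 lower in *cs*-WA, 8 lower in *cs*-A, 1 higher in *cs*-W and 0 in *cs*-M against *cs*-ctrl.

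Mock-treated and untreated tissue of the mutant differed less clearly. In *cs*-M 0 of the 10 genes were called against *cs*-ctrl, where 0.114% of all tested genes were called lower and 0.881% higher, while 6 had an unadjusted p under 0.05, all upward, and DESeq2 called 1 higher. *MYB28* was the 1 gene with every *cs*-M library above every *cs*-ctrl library, where 5.92% of all genes were apart upward and 6.25% downward, with a log2 fold change of 1.17 ± 0.37 (adjusted p = 0.0967). *CYP83A1* had 62.6, 22.4 and 28.4 CPM in *cs*-M, against 34.3, 5.22, 4.04, 10.9, 10.7 and 9.64 CPM in *cs*-ctrl. Its log2 fold change of 1.61 ± 0.46 missed the threshold (adjusted p = 0.0728), and it passed with the replicate number as a block (log2 fold change 1.63, adjusted p = 0.0477). The first *cs*-ctrl value, that of C0 replicate 1, was the highest of the 6 for each of the same 7 genes. Without this library 3 genes were called higher in *cs*-M, *MAM1* (log2 fold change 2.01, adjusted p = 0.0154), *BCAT4* (2.39, adjusted p = 0.0201) and *CYP83A1* (2.25, adjusted p = 0.00534). Every *cs*-M library then lay above every *cs*-ctrl library for 5 genes, where 6.91% of all genes were apart upward. With set C0 as the only untreated libraries, an alternative chosen after the data had been seen, 0 genes were called.

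Across the 10 group means the genes varied in step. Pearson's r of log2(CPM + 1) between pairs of the 10 genes ranged from 0.572 to 0.993 with a median of 0.930, over 10 groups that share the wild-type treatment effects for which the genes were chosen. Within the mutant, the 21 pairs of the 7 genes with at least 1 CPM on average had r from 0.741 to 0.979 over 18 libraries. After subtraction of each group's mean, r was 0.390 to 0.961 with a median of 0.833, so that the genes were high or low in the same replicate libraries. Of the 7 genes, replicate 1 was highest for 7 in *cs*-M and WT-A, and for 6 in *cs*-A and *cs*-WA. C0 replicate 1 was highest for 7 in *cs*-ctrl and for 4 in WT-ctrl. In WT-W replicate 1 was highest for 4, in WT-WA for 3 and in WT-M for 1, while in *cs*-W replicate 2 was highest for 6. The main model has no term for the replicate number. These values are descriptions, and the libraries share their depth and scaling.

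The 5 genes outside the list whose group means were most like the average of the 10 were *BAT5* (r = 0.997 over 10 group means), *GSTF11* (r = 0.996), *IPMI1* (r = 0.996), *IMD1* (r = 0.995) and *AK3* (r = 0.992). *BAT5* encodes the plastid transporter of the 2-oxo acids, *IPMI1* and *IMD1* encode an isopropylmalate isomerase subunit and an isopropylmalate dehydrogenase of chain elongation, and *GSTF11* a glutathione S-transferase assigned to the core pathway. *AK3* encodes an aspartate kinase. *AK3* averaged 1.41 CPM in WT-WA, 5.03 CPM in WT-A and 82.5 CPM in WT-W, against 741 CPM in WT-M. Of the 5, *BAT5* had 3.74 CPM in *cs*-ctrl, against 316 CPM in WT-ctrl.

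The rest of the pathway was examined through lists of known genes, whose counts stand beside 6.35% of all tested genes lower and 5.82% higher in *cs*-A, and 8.49% lower and 9.81% higher in *cs*-WA. Of 16 tested genes of the aliphatic pathway other than the 10, 9 fell and 0 rose in *cs*-A, and 11 fell and 1 rose in *cs*-WA, each against *cs*-M. The median log2 fold change was -0.81 in *cs*-A and -0.88 in *cs*-WA. In *cs*-W 0 of the 16 were called. *IPMDH1*, the isopropylmalate dehydrogenase also named *IMD1*, averaged 8.67 ± 2.30 CPM in *cs*-A, against 40.9 ± 20.1 CPM in *cs*-M (SD, n = 3 each), and fell by 2.25 ± 0.41 (adjusted p = 0.000151). *GSTU20*, a glutathione S-transferase, averaged 497 CPM in *cs*-WA, against 856 CPM in *cs*-M, and fell by 0.87 ± 0.25 (adjusted p = 0.00968), and in *cs*-A it had a log2 fold change of -0.49 ± 0.25 (adjusted p = 0.164). *IPMI LSU1*, the large isomerase subunit that leucine synthesis also uses, had a log2 fold change of -0.29 ± 0.14 in *cs*-A (adjusted p = 0.158). In the wild type *IPMI LSU1* averaged 284 CPM in WT-WA, 261 CPM in WT-A and 282 CPM in WT-W, against 903 CPM in WT-M.

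Of 6 genes for steps that aliphatic and indolic glucosinolates share, 4 fell in *cs*-A and 0 were called in *cs*-WA. *GGP1*, a gamma-glutamyl peptidase, fell by 1.42 ± 0.24 in *cs*-A (adjusted p = 7.3e-05), *APS1*, an ATP sulfurylase, by 0.83 ± 0.21 (adjusted p = 0.00455) and *SUR1*, the C-S lyase, by 0.67 ± 0.24 (adjusted p = 0.0446). Of 17 tested genes of the indolic branch, which starts from tryptophan, 3 fell and 1 rose in *cs*-A, and 2 fell and 1 rose in *cs*-WA. The 3 that fell in *cs*-A were *GSTF9* (log2 fold change -1.07 ± 0.16, adjusted p = 1.06e-05), *GSTF10* (-0.67 ± 0.21, adjusted p = 0.0196) and the methyltransferase gene *IGMT5* (-1.68 ± 0.32, adjusted p = 0.000349). The median of the 17 was -0.26 in *cs*-A and 0.40 in *cs*-WA. The difference between the branches was not tested.

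Of 10 transporters and upstream regulators, 4 fell and 0 rose in *cs*-A, and 2 fell and 1 rose in *cs*-WA. The transporter gene *GTR2* fell by 0.87 ± 0.26 in *cs*-A (adjusted p = 0.0163) and by 1.05 ± 0.27 in *cs*-WA (adjusted p = 0.00313). *MYC2*, a jasmonate-responsive factor, fell by 1.02 ± 0.34 in *cs*-A (adjusted p = 0.0276), and its relative *MYC3* had a log2 fold change of 0.20 ± 0.12 (adjusted p = 0.263). Of 7 tested genes of glucosinolate breakdown, 4 fell and 0 rose in *cs*-A, and 3 fell and 0 rose in *cs*-WA. The myrosinase gene *TGG2* fell by 1.16 ± 0.25 in *cs*-A (adjusted p = 0.00115), *NSP1*, a nitrile specifier, by 0.99 ± 0.26 (adjusted p = 0.00547), and the myrosinase gene *TGG1* had a log2 fold change of -0.56 ± 0.22 (adjusted p = 0.0596).

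**Figure D4:**
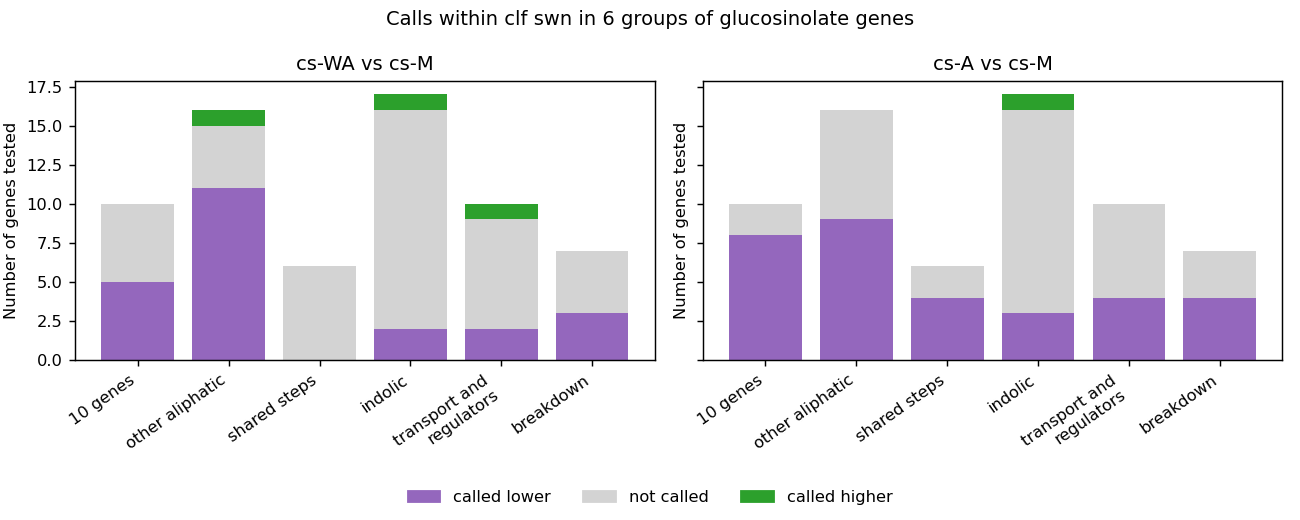
Number of tested genes called lower, not called or called higher within *cs* in each list, *cs*-WA and *cs*-A each against *cs*-M. Of the 10 genes 5 are lower in *cs*-WA and 8 in *cs*-A, and of the 17 indolic genes 2 and 3.

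Markers of other tissue also differed between the groups, and their counts stand beside the same shares of all genes. Of 10 green leaf markers, 8 of them encoding Rubisco small subunits and light-harvesting proteins, 4 fell and 0 rose in both *cs*-A and *cs*-WA against *cs*-M. Their summed level was 6630 to 11085 CPM in *cs*-A, 5452 to 7739 CPM in *cs*-WA and 8525 to 11391 CPM in *cs*-W, against 8017 to 9660 CPM in *cs*-M. Of 7 vasculature markers, 4 fell in *cs*-A and 5 in *cs*-WA and 0 rose, and their summed level was 50.9 to 58.8 CPM in *cs*-A and 35.5 to 48.9 CPM in *cs*-WA, against 81.3 to 92.4 CPM in *cs*-M. In the wild type the green leaf sum was 1310 to 1477 CPM in WT-WA, 1853 to 2625 CPM in WT-A and 6976 to 9566 CPM in WT-W, against 13568 to 16140 CPM in WT-M. In *cs*-ctrl it was 8460 to 10082 CPM, against 16262 to 21100 CPM in WT-ctrl. The vasculature sum was 73.4 to 79.2 CPM in WT-WA, 90.9 to 137 CPM in WT-A and 145 to 169 CPM in WT-W, against 89.9 to 107 CPM in WT-M.

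Of 6 root markers 2 rose in *cs*-A and 5 in *cs*-WA, and they summed to 78.5 to 90.9 CPM in *cs*-A and 95.8 to 124 CPM in *cs*-WA, against 27.8 to 33.9 CPM in *cs*-M. In the wild type they summed to 144 to 149 CPM in WT-WA, 87.7 to 95.9 CPM in WT-A and 24.4 to 31.6 CPM in WT-W, against 27.3 to 33.3 CPM in WT-M. The root sums of both 2,4-D groups thus lay above mock in both genotypes. Of 5 tested meristem markers 1 fell and 0 rose in both *cs*-A and *cs*-WA. The meristem sum in the wild type was 117 to 139 CPM in WT-WA, 197 to 201 CPM in WT-A and 198 to 268 CPM in WT-W, against 182 to 235 CPM in WT-M. Of 6 seed and embryo markers 1 fell and 0 rose in both, and they summed to 11039 to 17461 CPM in *cs*-A and 8469 to 11086 CPM in *cs*-WA. In the wild type the seed and embryo sum was 12.5 to 20.6 CPM in WT-WA, 10.4 to 16.9 CPM in WT-A and 10.7 to 13.4 CPM in WT-W. The part of these markers in the changes of the 10 genes was not tested.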

How the data were processed

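RNA-seq libraries were made with a TruSeq kit and sequenced on a HiSeq instrument. Per the study's methods, the authors trimmed the reads with Trimmomatic 0.32, aligned them to TAIR10 with TopHat2 2.0.10, kept unique alignments and counted them per gene with HTSeq. The deposited values are these raw counts, in 35 columns, with 0 columns left unused. The third control set of the table was taken as mock, because its library totals equal those that the study's read statistics list for DMSO. These statistics give the totals of the second wounded library of each genotype the other way round, and the columns were used as named, which *CLF* levels match. Read length and strandedness are not given in the sources used here, so reads of overlapping genes on opposite strands cannot be separated.

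Counts were filtered with filterByExpr, scaled by TMM and fitted in edgeR 4.0.16 (R 4.3.3) as 1 quasi-likelihood model of the 10 groups, with Benjamini-Hochberg adjustment over 21115 genes. Standard errors were derived from the fold change and its F statistic. The study states independent biological triplicates. Untreated C0 and C1 libraries with the same replicate number entered the model as separate replicates, and whether they are independent of each other is not given. Library totals had a median of 14665511, so 3 counts, the floor used, are worth 0.166 to 0.264 CPM. Counting intervals are exact at 95% and cover counting error only. On simulated counts of 20596 genes for *cs*-A against *cs*-M, 96.5% of 200 genes changed 4-fold were recovered and 5 others were called. The changed genes were drawn from those above a minimum mean level, and each group was simulated at the gene's mean over all libraries. The 10 genes lie below that mean in the mutant, so this share does not give the recovery at their level there.

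The members and lists were chosen with earlier results of these data known. From each other list the text names the 3 genes with the highest mean CPM over all libraries, and by likeness the 5 genes whose 10 group means of log2(CPM + 1) correlated best with the members' average. Gene models, neighbours and promoters came from RefSeq on TAIR10.1, in which all 10 members were found.

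Per the study's methods, replicates were made at different times, so a shared replicate number was taken as a shared batch. The main model has no term for it. Deviations from the group means had a median correlation of 0.0628 between libraries with the same number (182 pairs, -0.303 to 0.595) and of -0.0330 between libraries with other numbers (364 pairs). Alternatives were RLE scaling, 2 other filters, the replicate block, fits on fewer libraries, other call rules, DESeq2 1.42.0 and leaving out each library.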

Additional observations from a re-analysis of the deposited data

Results flagged for a closer look

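In *cs*-ctrl, C0 replicate 1 lay apart from the other 5 libraries by Dixon's test for 4 of the 10 genes. *MAM1* had 81.1 CPM in this library, with 5.83 to 18.6 CPM in the others, and *BCAT4* had 21.8 CPM, with 1.13 to 5.12 CPM in the others. *CYP79F1* had 24.0 CPM, with 1.39 to 7.15 CPM in the others, and *CYP83A1* had 34.3 CPM, with 4.04 to 10.9 CPM in the others. Of 20 sets of values examined in this way, chance flags about 1 in 20, and the 4 genes vary together, so these are not independent flags. In the same library the myrosinase gene *TGG1* had 141 CPM, within the 134 to 173 CPM of the others. The cause of the high values was not tested.

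*FMO GS-OX1* moved in opposite directions with wounding in the genotypes. Its mean was 2.30-fold higher in *cs*-W than in *cs*-M, with all 3 *cs*-W libraries above all 3 of *cs*-M, whereas in the wild type the mean in WT-W was 12.5% of that in WT-M, with every WT-W library below. The difference was not tested, and the call in the mutant missed the threshold. Means of *MYB28*, *MYB29*, *MAM1*, *BCAT4*, *CYP79F1*, *CYP79F2* and *CYP83A1* were also higher in *cs*-W than in *cs*-M and lower in WT-W than in WT-M. Their *cs*-W and *cs*-M libraries overlapped. For *BCAT4* the mean was 2.19-fold higher in *cs*-W, and in WT-W it was 8.66% of that in WT-M.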

How the results depend on the processing

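Within *cs*, the number of the 10 genes lower in *cs*-A (8) and *cs*-WA (5) stayed within 1.5 times under every alternative that kept all libraries of the groups compared, except a filter that asked for 10 counts or more in each library. It left 1 and 1, because most of the 10 genes fail it, and 857 genes lower in *cs*-A, 3 lower and 28 higher in *cs*-W, 1120 lower and 971 higher in *cs*-WA and 15 lower in *cs*-M against *cs*-ctrl. The cause of the other changes was not tested. The 1 gene higher in *cs*-W became 0 with RLE scaling, no filter, the replicate block, *cs* libraries only, the 2 groups only and a required gap of log2 0.6 between all libraries, and 2 with DESeq2. The replicate block gave 1 gene higher and, over all genes, 37 lower in *cs*-M against *cs*-ctrl, and changed no other call among the 10. With *cs* libraries only, *cs*-W had 7 genes lower and 132 higher over all genes, and *cs*-M had 53 lower. With the 2 groups only, these were 2 lower and 16 higher, and 70 lower and 309 higher. By adjusted p alone 2482 genes were lower and 2449 higher in *cs*-A, 54 lower in *cs*-W, 3442 lower in *cs*-WA and 72 lower in *cs*-M. With the required gap 639 were lower and 701 higher in *cs*-A, 676 lower in *cs*-WA, and 4 lower and 24 higher in *cs*-M. DESeq2 gave 32 lower in *cs*-W and, for *cs*-M, 54 lower and 334 higher, with 1 of the 10 higher. The main counts over all genes were 1340 lower and 1229 higher in *cs*-A, 12 and 213 in *cs*-W, 1792 and 2071 in *cs*-WA and 24 and 186 in *cs*-M against *cs*-ctrl. With set C0 alone 4 of the 10 had every WT-M library below WT-ctrl, as had 14.9% of all genes.

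Leaving out 1 library gave 5 to 7 of the 10 lower in *cs*-A, 3 to 5 in *cs*-WA, 0 to 2 higher in *cs*-W and 0 to 3 higher in *cs*-M. Over all genes it gave 996 to 1250 lower in *cs*-A and 1192 to 1726 lower in *cs*-WA. In *cs*-W 3 to 158 of all genes were lower and 74 to 598 higher, and in *cs*-M 2 to 35 lower and 42 to 242 higher. Of the 10, 2 to 4 were apart below and 0 to 2 above in *cs*-A against WT-A. Of all genes, 36.1% to 38.6% were below and 37.1% to 39.1% above there. In *cs*-W against WT-W 5 to 8 were below and 0 to 1 above, with 28.9% to 34.5% and 22.3% to 26.9% of all genes. In WT-W against WT-M 0 to 1 were above, with 23.7% to 29.9% of all genes. In WT-M against WT-ctrl 0 to 1 were above, with 6.66% to 10.1% of all genes. The sign turned for 3 genes. *MYB76*, with no more than 3 counts in any *cs* group, had log2 fold changes of -2.59 to 0.00 in *cs*-A, -2.05 to 1.95 in *cs*-W and -2.31 to 0.67 in *cs*-M. *MAM3* had -1.75 to 0.55 in *cs*-A, -0.046 to 2.42 in *cs*-WA and -0.35 to 1.95 in *cs*-M, and *CYP79F1* had -0.20 to 1.44 in *cs*-W.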

Other observations

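Some genes of the other lists were singled out after their values were seen. *AOP3*, which encodes a side chain dioxygenase, had 92.0 to 132 CPM in *cs*-M, against 0.276 to 0.663 CPM in WT-M, and 59.3 to 75.6 CPM in *cs*-WA, against 0.185 to 0.457 CPM in WT-WA. It fell by 0.90 ± 0.19 on the log2 scale in *cs*-WA against *cs*-M (adjusted p = 0.000505). Whether reads of related *AOP* genes were counted on it was not tested. *FMO GS-OX4*, a relative of *FMO GS-OX1*, averaged 25.7 ± 2.39 CPM in *cs*-WA, against 10.96 ± 1.74 CPM in *cs*-M (SD, n = 3 each), and was the aliphatic list's gene that rose (log2 fold change 1.15 ± 0.38, adjusted p = 0.0205). In the wild type it had 29.0 to 79.6 CPM in WT-WA, against 3.71 to 6.30 CPM in WT-M.

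*SDI1*, a sulfur-responsive repressor of the pathway's MYB factors, had 55.4 to 80.5 CPM in *cs*-M, against 0.345 to 2.16 CPM in WT-M. In the wild type it had 39.7 to 71.6 CPM in WT-W, above the 1.48 to 3.09 CPM of WT-WA. *ESM1*, a modifier of glucosinolate breakdown, averaged 1.51 ± 0.12 CPM in *cs*-A and 1.14 ± 0.27 CPM in *cs*-WA, against 6.76 ± 1.96 CPM in *cs*-M, and fell in both (log2 fold changes -2.18 and -2.66, adjusted p = 9.08e-07 and 4.15e-08). It averaged 463 CPM in WT-M.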
